A study of Mus musculus with 9 samples.

Results

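The 10 genes described here were grouped as macrophage markers. They include the receptor Csf1r and its ligand Csf1, a secreted growth factor, the scavenger receptors Mrc1 and Cd163, and the hyaluronan receptor Lyve1. The others are the lysozyme Lyz2, the lysosomal glycoprotein Cd68, the lipid receptor Trem2, the apolipoprotein Apoe and the G protein-coupled receptor Gpr34. All 10 were among 22609 genes listed in every library and were matched by their gene symbol. They were chosen by name with their values in these same libraries known, so each difference between groups is given as a description, as a log2 fold change with its standard error (SE) and without a p-value.

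The RNA came from whole mammary tumors formed by 4T1 cells, a mouse triple-negative breast cancer line, in syngeneic BALB/c mice. In the LFD group the mice ate a low-fat diet with 10 kcal% fat, and in the HFD group and the HFD + EC359 group a high-fat diet with 60 kcal% fat. All 3 groups had been on their diet for 6 weeks before an orthotopic injection of 500000 4T1 cells in the mammary fat pad. LFD and HFD mice received the vehicle, 0.3% hydroxypropyl cellulose, while HFD + EC359 mice received EC359, a small-molecule inhibitor of the leukemia inhibitory factor receptor (LIFR), at 5 mg/kg by intraperitoneal injection on 5 days per week. Each group had 3 stranded mRNA libraries. No LFD library among the 9 came from EC359-treated mice, so the drug was compared on the high-fat diet alone. The sources used here give no age at injection for each library, and do not tie each replicate number to a separate animal. The spread between libraries may thus be partly technical, and the SEs and p-values need not cover the spread between animals.

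Macrophages are phagocytes that seed tissues before birth or arise from blood monocytes, and they are commonly abundant in mammary tumors. Their survival depends on signaling through CSF1R, which binds CSF1 and IL-34. Lyve1, a receptor for the matrix glycan hyaluronan, marks a class of resident macrophages that lie along blood vessels and often carry Mrc1 and Cd163, whereas Trem2 and Apoe mark macrophages that take up lipid. Lyve1 is also a classical marker of lymphatic endothelium, so lymphatic genes are given beside it.

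The libraries held 5085357 to 9751201 counts, and 3 counts in a library correspond to 0.308 to 0.59 CPM, the count scaled to the library total. LFD replicate 1, the smallest library, stood further from the other LFD libraries (mean chi-square per gene 2.54 and 3.1) than any other pair of the same group did (1.36 to 1.57). With each gene centered over the 9 libraries, the mean log2 level of genes low in GC content (lowest 25%) minus that of genes high in it (highest 25%) was -0.54 to -0.32 in LFD, 0.1 to 0.16 in HFD and 0.25 to 0.3 in HFD + EC359 libraries. This difference in GC content ran with the groups, and marker log2 fold changes it moved by over 1.5 times are given with the trend removed. Since whole tumors were sequenced, fewer cells of a type and less RNA per cell cannot be told apart.

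The labels name the 4T1 line as the source, and the tumors also carried the RNA of macrophages in every group. Of 21 genes listed that most macrophages express, 20 passed the filter on low counts, among them Emr1 (F4/80), at 36.1 CPM in LFD, and Ptprc (CD45), the marker of all white blood cells, at 62.7 CPM. The exception was Marco, a scavenger receptor of certain tissue macrophages, which had 0 counts in all 9 libraries. All 10 markers passed the same filter, although Lyve1 and Gpr34 had under 10 counts in each LFD library and passed through the other groups.

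To compare levels between genes, counts were divided by exonic length and scaled to a common total per library (TPM). In LFD tumors the order was Apoe (1040 ± 46.9 TPM, mean ± SD, n = 3), Lyz2 (667 ± 29), Mrc1 (230 ± 13.2), Csf1 (152 ± 3.31), Csf1r (148 ± 2.44), Cd163 (136 ± 1.46), Cd68 (68.5 ± 10.6), Trem2 (49.7 ± 11.3), Lyve1 (0.738 ± 0.387) and Gpr34 (0.338 ± 0.232). The levels of Csf1 and Csf1r, of Cd68 and Trem2, and of Lyve1 and Gpr34 lay within the sum of their SDs of one another. In HFD + EC359 tumors Lyz2 led (1658 ± 13), ahead of Apoe (1578 ± 11.2), and Lyve1 (3.76 ± 0.638) and Gpr34 (5.23 ± 1.57) were still the lowest.

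The 250 bases before the transcription start of 4 of the markers are printed here because these genes differed in their pattern over the groups: Mrc1 and Cd163 were both lower in HFD tumors and then parted in the EC359 group, whereas Lyz2 and Cd68 were higher in each successive group. The sequences are from RefSeq on build GRCm38.p6, are written 5′ to 3′ in the direction of the gene, and were searched for 7 of the 10 markers. Lyve1 and Gpr34 had no window listed by symbol, and Csf1r was left out. Capitals mark GAGGAA (or TTCCTC on the other strand), the core of the site bound by the macrophage factor PU.1, and TGCTGA (or TCAGCA), the half-site of MAF factors. The windows are chr2:14229164-14229413 (+ strand) for Mrc1, chr6:124304401-124304650 (+ strand) for Cd163, chr10:117282273-117282522 (− strand) for Lyz2 and chr11:69666171-69666420 (− strand) for Cd68.
Mrc1: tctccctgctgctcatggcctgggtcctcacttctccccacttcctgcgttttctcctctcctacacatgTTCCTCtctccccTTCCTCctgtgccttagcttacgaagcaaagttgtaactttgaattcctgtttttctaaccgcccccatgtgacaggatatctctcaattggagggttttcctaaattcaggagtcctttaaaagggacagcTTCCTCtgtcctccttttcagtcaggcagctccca
Cd163: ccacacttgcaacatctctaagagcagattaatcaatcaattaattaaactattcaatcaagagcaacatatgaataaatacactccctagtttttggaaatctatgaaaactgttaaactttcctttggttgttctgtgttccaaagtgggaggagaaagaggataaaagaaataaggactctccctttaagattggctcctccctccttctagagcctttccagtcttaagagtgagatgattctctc
Lyz2: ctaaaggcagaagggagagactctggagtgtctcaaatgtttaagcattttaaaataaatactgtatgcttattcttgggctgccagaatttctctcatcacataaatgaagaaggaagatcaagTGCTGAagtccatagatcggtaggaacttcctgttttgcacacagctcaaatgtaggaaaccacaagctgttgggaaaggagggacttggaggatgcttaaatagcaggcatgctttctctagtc
Cd68: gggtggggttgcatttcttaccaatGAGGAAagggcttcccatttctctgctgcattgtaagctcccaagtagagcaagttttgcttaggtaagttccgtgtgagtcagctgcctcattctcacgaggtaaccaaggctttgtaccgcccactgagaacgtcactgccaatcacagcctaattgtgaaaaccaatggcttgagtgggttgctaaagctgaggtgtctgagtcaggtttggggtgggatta
The Mrc1 window held 3 PU.1-type matches, beginning 180, 167 and 35 bases before the start, and the Cd68 window held 1, beginning 225 bases before it. The Lyz2 window held 1 MAF half-site, beginning 125 bases before the start, and the Cd163 window held a match to neither. Of 32851 promoter windows of the same length, 23.3% held the PU.1-type letters and 16.1% the MAF half-site. Over all 7 markers searched, Apoe, Cd68, Mrc1 and Trem2 held the PU.1-type letters and Lyz2 alone the MAF half-site. Apoe had 3 windows and was counted when any of them held a match, whereas the shares of all windows are per window. TGANTCA, the AP-1 site, was in the windows of Cd68 and Trem2 (6.75% of all windows), and TATAAA was in 1 of the 3 windows listed for Apoe (12.4% of all windows). These matches describe the letters of the windows and were not tested for binding.

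**Figure D1:**
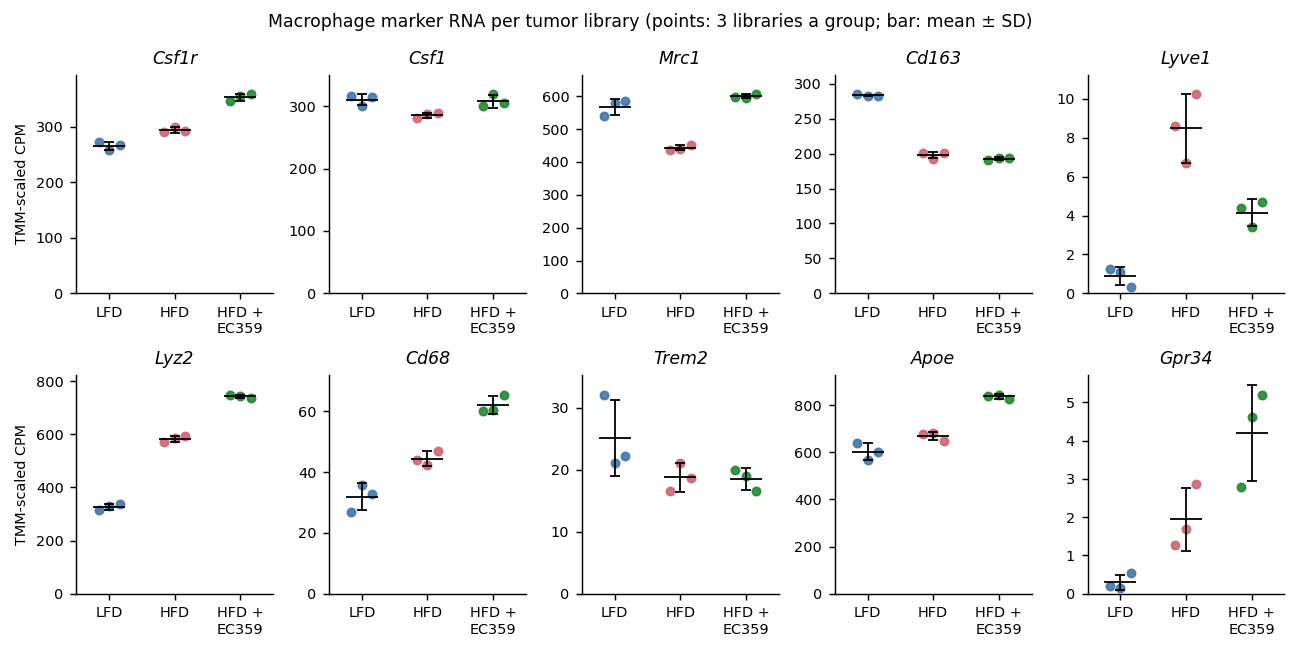
CPM (y axis, linear, from 0) of each marker in the 9 libraries, with points for the 3 libraries of LFD, HFD and HFD + EC359 and a bar with whiskers for mean ± SD. Lyz2, Cd68 and Csf1r step up from group to group, Lyve1 is highest in HFD at 6.68 to 10.2 CPM, and Mrc1 is lowest there at 438 to 452 CPM.

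Csf1r, the tyrosine kinase receptor on which most macrophages depend, was higher in each successive group. Its level was 272, 258 and 268 CPM in LFD replicates 1 to 3, 290, 300 and 293 CPM in HFD, and 346, 355 and 359 CPM in HFD + EC359. Every HFD library lay above every LFD library and every EC359 library above both. The difference was small with diet, with a log2 fold change of 0.15 (SE 0.039) for HFD against LFD, and 0.24 with the GC trend removed. Against HFD, the EC359 group was higher by 0.26 (SE 0.037) on the log2 scale.

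Csf1, the growth factor that binds this receptor, did not follow it. It stood at 317, 300 and 315 CPM in LFD, 281, 287 and 289 CPM in HFD, and 300, 319 and 304 CPM in HFD + EC359. The HFD libraries were the lowest 3, and the LFD and EC359 libraries overlapped. The log2 fold change was -0.12 (SE 0.039) for HFD against LFD, which shrank to -0.04 with the GC trend removed, and 0.11 (SE 0.038) for HFD + EC359 against HFD. Per length, Csf1 amounted to 102% ± 0.693 of Csf1r in LFD, 85% ± 1.29 in HFD and 76.4% ± 2.19 in HFD + EC359, and these ratios did not overlap between any pair of groups. Il34, the other ligand of the receptor, was at 28.9 ± 2.94, 26.1 ± 2.09 and 28 ± 2.83 CPM in the same order and passed no test (edgeR adjusted p = 0.29 and 0.52).

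Mrc1, the mannose receptor CD206, was lower with the high-fat diet and higher again with EC359. Its values were 539, 578 and 585 CPM in LFD, 438, 441 and 452 CPM in HFD, and 599, 594 and 606 CPM in HFD + EC359. The HFD libraries lay below all others, and the EC359 libraries lay just above the LFD libraries. The log2 fold change was -0.36 (SE 0.036) for HFD against LFD and 0.44 (SE 0.035) for HFD + EC359 against HFD. With the GC trend removed the first became -0.61, and the small difference between HFD + EC359 and LFD turned from 0.08 (SE 0.035) to -0.23.

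Cd163, which takes up complexes of haptoglobin and hemoglobin, was lower in both high-fat groups and did not return with EC359. LFD libraries had 285, 283 and 283 CPM, HFD libraries 201, 193 and 200 CPM, and HFD + EC359 libraries 191, 193 and 194 CPM. The LFD libraries stood apart from the rest, and the HFD and EC359 libraries overlapped. HFD differed from LFD by a log2 fold change of -0.52 (SE 0.04), and HFD + EC359 from HFD by -0.04 (SE 0.04), or -0.06 with the GC trend removed. Per length, Cd163 was 59.2% ± 2.9 of Mrc1 in LFD, 52.9% ± 1.33 in HFD and 38.1% ± 0.407 in HFD + EC359, with no overlap between groups. From LFD to HFD the log2 ratio changed by -0.16, which became 0.0015 with the GC trend removed, and from HFD to HFD + EC359 by -0.47, which became -0.43.

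Lyve1 had a wider range than Mrc1 and Cd163 and was rare in LFD tumors. It had 6, 7 and 2 counts in LFD replicates 1 to 3 (1.23, 1.1 and 0.352 CPM), 68, 51 and 75 counts in HFD (8.57, 6.68 and 10.2 CPM), and 36, 30 and 47 counts in HFD + EC359 (4.37, 3.39 and 4.7 CPM). No library of one group overlapped those of another, and the EC359 libraries lay between LFD and HFD. HFD lay above LFD by a log2 fold change of 3.23 (SE 0.32). For HFD + EC359 the log2 fold change was -1.02 (SE 0.2) against HFD and 2.21 (SE 0.36) against LFD. Summed over libraries, the ratio of HFD to LFD was 9.56, with a 95% exact interval of 5.66 to 17.4 that covers counting error alone.

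Lyve1 therefore moved apart from the 2 receptors it often accompanies. Per length it was 0.325% ± 0.179 of Mrc1 in LFD, 3.9% ± 0.768 in HFD and 1.41% ± 0.22 in HFD + EC359. At its highest it was still a small part of the Mrc1 level, 4.62% in HFD replicate 3. Across the 9 libraries the genes whose log2 CPM followed Lyve1 most closely were Nfia (Pearson r = 0.99), Akap8 (0.987), Rock1 (0.982), Eed (0.981) and 4933411K16Rik (0.979). These r values are a description over 9 libraries that share 3 groups and the GC difference, and with the GC trend removed Rock1 turned from 0.25 to -0.18 for HFD against LFD. None of these 5 is among the markers, whose own r with Lyve1 ran from -0.877 (Cd163) to 0.771 (Lyz2).

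Lymphatic genes differed among themselves in level and pattern in the same libraries. Prox1, the transcription factor of lymphatic identity, had 1, 4 and 3 counts in LFD, 2, 0 and 4 in HFD, and 1, 9 and 2 in HFD + EC359. Mmrn1 had 1 to 3, 0 to 2 and 3 to 8 counts in the 3 groups, and the lymphatic chemokine Ccl21a had 0 counts in every HFD library. Flt4 (VEGFR3) had 65 to 163 counts and Pdpn (podoplanin) 30 to 83 counts per library, both with their highest mean in HFD, as Lyve1 had. Of 10 lymphatic genes listed, 6 had enough counts to be tested. With HFD only Flt4 rose, by 0.52 on the log2 scale (edgeR adjusted p = 0.0015), and Nrp2 and Tbx1 fell. At an adjusted p under 0.05 (edgeR), 26% of all tested genes were higher and 25.8% lower in HFD. The summed level of all 10, most of it Nrp2, was 419 to 432 CPM in LFD, 377 to 403 in HFD and 488 to 514 in HFD + EC359. The part of lymphatic cells in the Lyve1 result was not tested.

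Blood vessel genes moved in the direction of Lyve1 with HFD, and most of them also with EC359. All 10 of the list were higher in HFD, including Kdr (log2 fold change 0.8, edgeR adjusted p = 1.3e-09) and Cdh5 (1.22, adjusted p = 8.5e-18), and 8 of them fell with EC359, including Vwf by 1.04 (adjusted p = 2.5e-10). Relative to LFD tumors, the EC359 group was divided: 4 of the 10 genes were higher, 2 lower and 4 neither (edgeR adjusted p under 0.05). Vwf, unlike Lyve1, ended below its LFD level, at 20.3 to 22.3 CPM in LFD and 15.2 to 18.8 CPM in HFD + EC359. The summed level of the list was 274 to 282 CPM in LFD, 472 to 501 in HFD and 374 to 390 in HFD + EC359. The fibroblast list was also highest in HFD but, unlike Lyve1, lowest in HFD + EC359. Its sum was 6371 to 7667, 10738 to 11309 and 3301 to 3384 CPM in LFD, HFD and HFD + EC359, most of it Col1a1 and Col1a2. The epidermis list ran the other way, at 1148 to 1328, 175 to 186 and 547 to 552 CPM, most of it Krt14 and Krt5. The part of these shifts in the Lyve1 result was not tested.

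**Figure D2:**
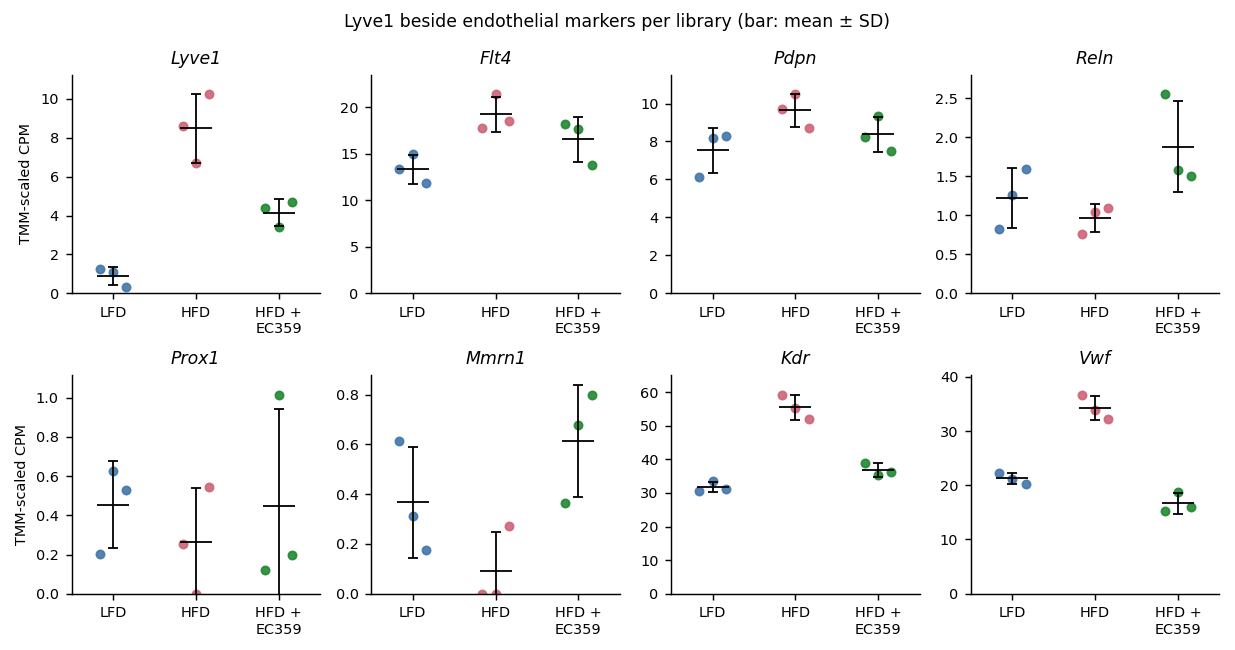
CPM (y axis, linear, from 0) in the 9 libraries of Lyve1, of 5 lymphatic genes (Flt4, Pdpn, Reln, Prox1, Mmrn1) and of 2 blood vessel genes (Kdr, Vwf), as points with mean ± SD. Prox1 and Mmrn1 stay at or under about 1 CPM in every library, while Kdr and Vwf are highest in HFD, where Lyve1 is at 6.68 to 10.2 CPM.

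Lyz2, the lysozyme of myeloid cells, showed the largest step among the abundant markers. It was at 315, 328 and 336 CPM in LFD, 570, 586 and 592 CPM in HFD, and 748, 743 and 737 CPM in HFD + EC359. Each group was clear of the next. HFD exceeded LFD by 0.84 (SE 0.035) on the log2 scale. HFD + EC359 exceeded HFD by 0.35 (SE 0.033) and LFD by 1.19 (SE 0.035). Its near copy Lyz1 shares 74 of the 1239 stretches of 75 bases in the Lyz2 transcript, so reads there could be split between them, yet Lyz1 had a mean of 0.933, 1.75 and 4.4 CPM in the 3 groups.

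Cd68, a glycoprotein of macrophage lysosomes, followed Lyz2 at a lower level. LFD libraries had 27, 35.8 and 33 CPM, HFD libraries 44.1, 42.3 and 47 CPM, and HFD + EC359 libraries 60.3, 60.6 and 65.5 CPM. The groups did not overlap, and LFD replicate 1 was the lowest library. On the log2 scale the difference was 0.47 (SE 0.09) for HFD against LFD and 0.48 (SE 0.076) for HFD + EC359 against HFD. Relative to Csf1r per length, Lyz2 was at 450% ± 22 in LFD, 726% ± 13.2 in HFD and 772% ± 19.8 in HFD + EC359, with log2 steps of 0.69 and 0.09, or 0.6 and 0.02 with the GC trend removed.

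Trem2, the receptor for lipids and apolipoproteins that signals through Tyrobp, varied most between libraries of a group among the 8 more abundant markers. It was at 32.1, 21 and 22.2 CPM in LFD, 16.5, 21.1 and 18.7 CPM in HFD, and 20, 19.1 and 16.5 CPM in HFD + EC359. HFD replicate 2 lay within the LFD range, and the HFD and EC359 libraries overlapped throughout. The log2 fold change of -0.4 (SE 0.13) for HFD against LFD shrank to -0.20 without LFD replicate 1 and to -0.17 with the GC trend removed. For HFD + EC359 against HFD it was -0.02 (SE 0.13), or 0.0096 with the GC trend removed. The genes closest to its pattern were Lrrfip2 (Pearson r = 0.964 over 9 libraries), C1qbp (0.954), Pik3ap1 (0.946), Ddhd1 (0.946) and Aldh9a1 (0.94), and like Trem2 all 5 had their highest mean and SD in LFD. These r values too are a description over libraries that share 3 groups and the GC difference, with Trem2 highest in LFD replicate 1.

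Apoe, which carries cholesterol out of macrophages and is a ligand of TREM2, was higher in the EC359 group. Its values were 640, 569 and 600 CPM in LFD, 677, 680 and 647 CPM in HFD, and 840, 844 and 826 CPM in HFD + EC359. The highest LFD library (640 CPM) came close to the lowest HFD library (647 CPM), whereas the EC359 libraries stood clear above both. The difference in log2 units was 0.15 (SE 0.037) for HFD against LFD and 0.32 (SE 0.035) for HFD + EC359 against HFD. Apoe has the highest GC content of the 10 (61.3%), and with the GC trend removed the first value became 0.46 and that for HFD + EC359 against LFD went from 0.47 (SE 0.036) to 0.88. Per length, Apoe was at 701% ± 24.1, 703% ± 19.4 and 734% ± 19.4 of Csf1r in the 3 groups, and these ratios overlapped. Against LFD the log2 ratio differed by 0.0021 in HFD and 0.06 in HFD + EC359, which became 0.22 and 0.36 with the GC trend removed. Trem2 per Apoe was 4.76% ± 0.874 in LFD, 3.23% ± 0.386 in HFD and 2.54% ± 0.226 in HFD + EC359.

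Gpr34, a G protein-coupled receptor of microglia and other macrophages, was the rarest marker in LFD and HFD. It had 1, 1 and 3 counts in LFD (0.205, 0.157 and 0.529 CPM), 10, 13 and 21 counts in HFD (1.26, 1.7 and 2.86 CPM), and 23, 41 and 52 counts in HFD + EC359 (2.79, 4.63 and 5.2 CPM). LFD lay below both other groups, and HFD replicate 3 was just above EC359 replicate 1. The log2 fold change was 2.64 (SE 0.6) for HFD against LFD and 1.14 (SE 0.3) for HFD + EC359 against HFD. With 5 counts in all of LFD, the ratio of HFD to LFD was 6.51 with a counting interval of 2.59 to 21, and that of HFD + EC359 to LFD was 14.5 with an interval of 6.03 to 45.5. Gpr34 has the lowest GC content of the 10 (36.4%), and with the GC trend removed the log2 fold changes were 2.16 and 0.97.

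**Figure D3:**
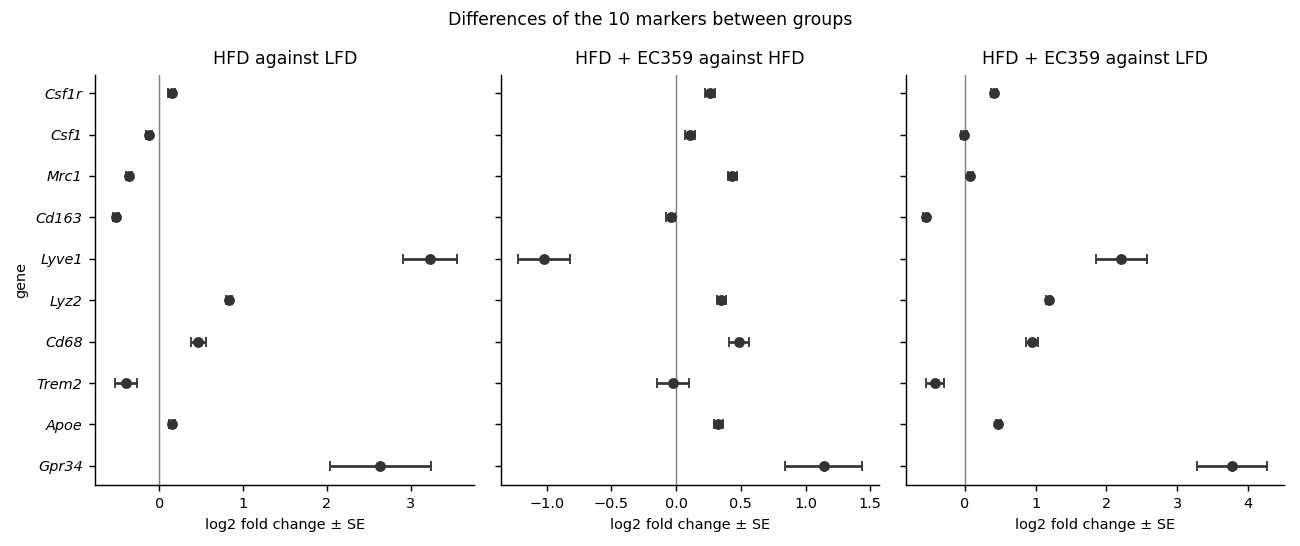
Log2 fold change (x axis) with SE (whiskers) of each of the 10 markers (y axis) for HFD over LFD (left), HFD + EC359 over HFD (middle) and HFD + EC359 over LFD (right), each panel with its own scale. Lyve1 lies at 3.23, -1.02 and 2.21 in the 3 panels, Gpr34 at 2.64, 1.14 and 3.78, and the other 8 between -0.55 and 1.19.

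Under the rule of the study's methods (fold over 2 and adjusted p under 0.01, edgeR), Lyve1 and Gpr34 were called higher in HFD than in LFD, where 3.03% and 2.68% of the 13366 tested genes were called higher and lower, respectively. With any fold at an adjusted p under 0.05, 6 were higher (Csf1r, Lyz2, Cd68, Apoe, Lyve1 and Gpr34) and 4 lower (Csf1, Mrc1, Trem2 and Cd163), beside 26% and 25.8% of all genes. The median of the 10 log2 fold changes was 0.15, and that of all tested genes 0.01. Without LFD replicate 1 the call of Trem2 was lost, and without HFD replicate 1 those of Trem2 (-0.31) and Csf1 (-0.11). With the GC trend removed both calls were lost (-0.17 and -0.04), and that of Csf1 also when scaled by library totals alone (-0.08). That of Trem2 was also lost on thinning to the smallest library (-0.29). With the 6 libraries of these groups alone, Gpr34 did not pass the filter and was not tested. Because these contrasts were known when the markers were chosen, nothing is read from these counts.

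For HFD + EC359 against HFD, the first rule called Gpr34 higher and Lyve1 lower, beside 2.06% and 1.38% of all genes. The second rule called 7 higher (Csf1r, Csf1, Mrc1, Lyz2, Cd68, Apoe and Gpr34), 1 lower (Lyve1) and neither Trem2 nor Cd163, beside 12.7% and 13.9% of all genes, and the median was 0.29. By the first rule neither was called without HFD + EC359 replicate 2 (Gpr34 1.08, Lyve1 -0.90), Lyve1 was not without HFD replicate 3 (-0.88), and Gpr34 was not without HFD replicate 1 or 2 or HFD + EC359 replicate 3 (0.9 to 1.06). By the first rule Gpr34 was also not called by DESeq2 (1.12), with the GC trend removed (0.97) or on thinning to the smallest library, and scaling by library totals alone did not call Lyve1 (-0.99). By the second rule Csf1 was not called without any one HFD library or HFD + EC359 replicate 2 or 3 (0.08 to 0.11), nor by DESeq2 (0.1) or on thinning. For HFD + EC359 against LFD, Lyz2, Lyve1 and Gpr34 were called higher by the first rule, beside 3.66% and 1.43% of all genes. By the second rule 6 were higher and 2 lower (Trem2 and Cd163), beside 29.2% and 29.1%. Without LFD replicate 1 the call of Trem2 was lost, its log2 fold change going from -0.42 to -0.23. This call was also lost with the GC trend removed (-0.16), where Mrc1 was called lower (-0.23) and Csf1 higher (0.09). Mrc1 was instead called higher with library totals alone, with the replicate block or without LFD replicate 3. The same held with either other filter on low counts. The HFD libraries enter both the first and the second comparison and the LFD libraries the first and the third, so their values are not independent.

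**Figure D4:**
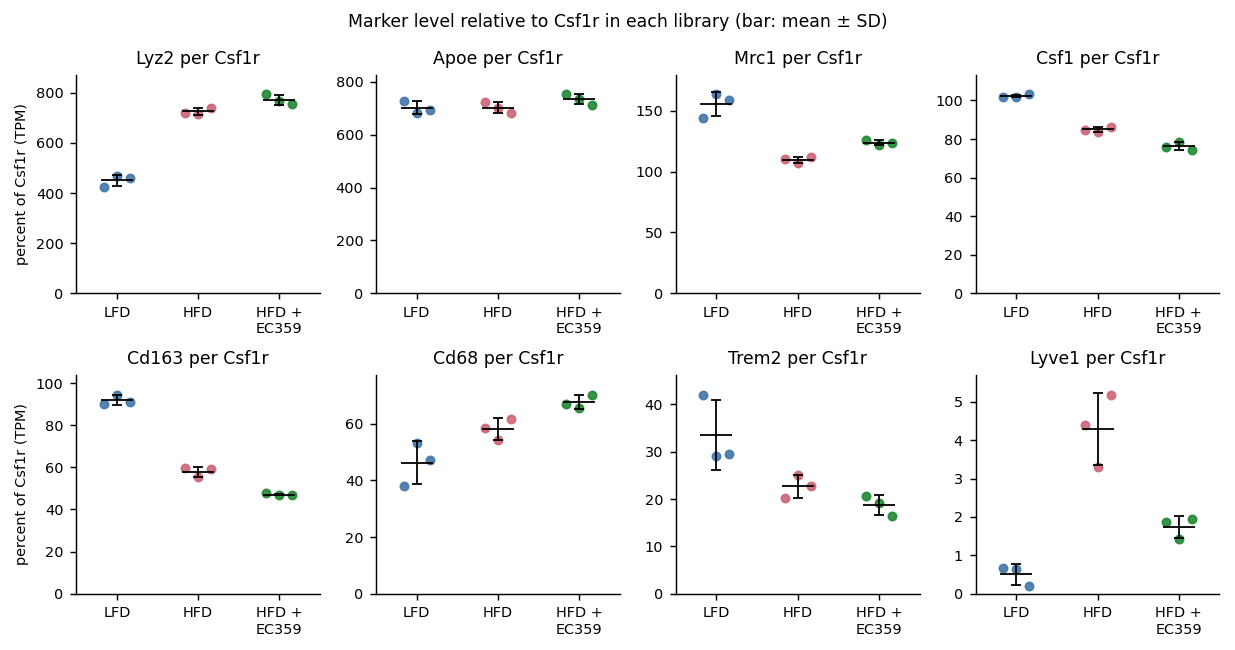
Level of 8 markers as a percent of Csf1r (y axis, linear, from 0, both in TPM) in each of the 9 libraries, with mean ± SD. Cd163 and Csf1 step down and Cd68 steps up over LFD, HFD and HFD + EC359, Lyve1 is highest in HFD, and the Apoe libraries of all groups overlap between 683% and 752%.

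Around these markers, 152 other genes of macrophage pathways were listed and 137 of them had enough counts to be tested. The lists were written with earlier results of these data known. Other cells of a whole tumor can carry some of these genes, and their part in the counts that follow was not tested. At an adjusted p under 0.05 (edgeR, over all tested genes), 57 were higher and 38 lower in HFD than in LFD (median log2 fold change 0.12), which is 41.6% and 27.7% of them, beside 26% and 25.8% of all genes. In HFD + EC359, 52 were higher and 24 lower than in HFD (median 0.13), or 38% and 17.5%, beside 12.7% and 13.9%. For HFD + EC359 against LFD, 57 were higher and 32 lower (median 0.14), or 41.6% and 23.4%, beside 29.2% and 29.1%. Each list count that follows stands beside these shares of all genes. The medians over all tested genes were 0.01 in each comparison.

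Of 20 general macrophage genes tested, 13 rose and 5 fell with HFD, and 17 rose and none fell with EC359 (edgeR; 0 were also lower at an unadjusted p under 0.05, and 0 by DESeq2). Fcgr4, an activating Fc receptor, rose from 3.19 to 11.6 and 19.6 CPM, with log2 fold changes of 1.84 (adjusted p = 2.4e-09) and 0.75 (adjusted p = 1.3e-05). Cx3cr1, the fractalkine receptor, rose by 1.79 (adjusted p = 1.9e-17) and 0.55 (adjusted p = 1.4e-08). The pore-forming protein gene Mpeg1 rose by 0.94 and 0.54 and Emr1 by 0.47 and 0.43. The 5 that fell with HFD were Axl, Cd14, Fcer1g, Lgmn and Sirpa. Axl (1135 CPM in HFD), a receptor for Gas6, fell by 0.5 (adjusted p = 7.3e-15), Cd14 (65 CPM in HFD), a receptor for bacterial lipopolysaccharide, fell by 0.56 (adjusted p = 1.3e-09), and the protease Lgmn fell by 0.23 and rose again by 0.23. The call of Sirpa, at -0.17 with HFD, was lost with the GC trend removed (-0.03).

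Of 16 tested genes of CSF1 receptor signaling and of the factors that drive myeloid genes, 9 fell and 3 rose with HFD, and 5 rose and 2 fell with EC359. Cebpa, a factor of myeloid differentiation, fell by 0.9 (adjusted p = 1.4e-09), with a log2 fold change of -0.59 when the GC trend was removed. Csf3, the granulocyte growth factor, fell by 0.86 with HFD and had a log2 fold change of -0.13 with EC359 (adjusted p = 0.35). Cebpb fell by 0.41, but with the GC trend removed its change was 0.01, and Sfpi1, which encodes PU.1, went from -0.12 to 0.18.

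Genes that resident, Lyve1-bearing macrophages express were divided. Of 22 tested, 11 rose and 6 fell with HFD, and 9 rose and 5 fell with EC359. Sepp1 (selenoprotein P) rose in both, by 0.61 and 0.68, from 128 CPM in LFD to 315 CPM in HFD + EC359, and Igf1 rose by 1.06 with HFD (adjusted p = 4e-07), or 0.61 with the GC trend removed. The lectin gene Clec10a ran like Lyve1, rising by 0.99 with HFD and with a log2 fold change of -0.57 with EC359 (adjusted p = 0.0014). Folr2, a folate receptor used to mark these cells, was at 17.9, 14.8 and 17.4 CPM, with adjusted p = 0.049 and 0.12. Timd4 was at 0.887, 1.26 and 2.61 CPM, whereas the chemokine gene Pf4 fell in both comparisons, from 70.3 to 47.5 and 37.6 CPM.

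Genes of lipid-laden, Trem2-bearing macrophages also went both ways with diet. Of 21 tested, 10 rose and 7 fell with HFD, and 10 rose and 1 fell with EC359. Fabp4, the fatty acid carrier of adipocytes and macrophages, rose by 1.66 with HFD (adjusted p = 5.6e-11), while its relative Fabp5 fell by 1.25 and rose by 1.16 with EC359 (adjusted p = 5.5e-10). Lpl, which frees fatty acids from lipoproteins, rose by 1.05 and fell by 0.64. Spp1 (osteopontin) rose in both, by 0.6 and 0.55, and Lgals3 fell by 0.89 and Cd63 fell by 0.65 with HFD. Tyrobp, the signaling partner of TREM2, was at 53.3, 46.5 and 51.7 CPM, and Trem2 per Tyrobp was 24.4% ± 5.39, 21.1% ± 3.39 and 18.8% ± 2.95 per length, with overlapping libraries (log2 step -0.21 from LFD to HFD, -0.1 with the GC trend removed).

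Of 13 tested genes that handle the cholesterol cargo of Apoe, 2 rose and 4 fell with HFD, and 1 rose and 2 fell with EC359. The cholesterol exporter Abca1 rose by 0.17 and fell by 0.15, and the first call was lost with the GC trend removed (0.02). The receptor Lrp1, the most abundant at 2593 CPM in LFD, had a log2 fold change of -0.01 with HFD (adjusted p = 0.78), which became 0.13 with the GC trend removed. Lrp8 fell by 0.38 with HFD.

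Among P2Y-family and microglia-type genes near Gpr34 in function, 4 of 9 tested rose with HFD and 0 fell (0 also at an unadjusted p under 0.05 and by DESeq2), and 4 rose and 1 fell with EC359. P2ry12 was at 0.587, 2.32 and 3.81 CPM and rose in both comparisons (log2 fold change 1.94 and 0.72, adjusted p = 5e-04 and 0.039). P2ry13 rose by 1.03 and 1.26, and P2ry14 rose with EC359 by 1.16 (adjusted p = 0.0043). The call of P2ry13 with HFD was lost without LFD replicate 2 or 3 or HFD replicate 2 or 3 (0.8 to 0.98), and that of P2ry12 with EC359 without HFD replicate 1 or 2 or HFD + EC359 replicate 1 or 3 (0.54 to 0.79). With the GC trend removed both calls were lost (0.85 and 0.6), and that of P2ry12 also on thinning to the smallest library (0.59). Sall1, a factor that defines microglia, had 4 counts over all libraries.

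Genes of hemoglobin and iron handling did not follow Cd163. Of 10 tested, 4 rose and 1 fell with HFD, and 1 rose and 5 fell with EC359. Hmox1, which degrades heme, was at 127, 190 and 103 CPM, rising by 0.59 (adjusted p = 2.8e-12) and falling by 0.89 (adjusted p = 4.5e-17). The iron exporter Slc40a1 rose by 0.88 and fell by 0.3, and the ferritin gene Ftl1 rose by 0.3 (0.54 with the GC trend removed) and fell by 0.2.

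Genes that make or bind hyaluronan, the ligand of LYVE1, included several that were highest in HFD, as Lyve1 was. Unlike Lyve1, Has2 and Has1 had a lower mean in HFD + EC359 than in LFD. Of 10 tested, 6 rose and 1 fell with HFD, and 2 rose and 4 fell with EC359. The synthase gene Has2 was at 98.8, 141 and 68.3 CPM, rising by 0.51 (adjusted p = 3.1e-09; 0.16 with the GC trend removed) and falling by 1.04 (adjusted p = 1e-16). Has1, at 0.893, 2.37 and 0.358 CPM, rose by 1.4 and fell by 2.62, and the matrix proteoglycan Vcan rose by 1.37 and fell by 1.46. Has3 went the other way, falling by 1.2 and rising by 1.34. Cd44, the main hyaluronan receptor of most cells, was at 370, 365 and 412 CPM and rose by 0.18 with EC359.

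Neither activation list moved in one direction. Of 11 classical genes, 4 rose and 2 fell with HFD, and 3 rose and 2 fell with EC359. Cxcl9, a chemokine induced by interferon gamma, rose in both, from 1.05 to 5.52 and 15.1 CPM (log2 fold change 2.35 and 1.45, adjusted p = 9.7e-08 and 4.3e-09). Socs3 fell in both, from 266 to 201 and 159 CPM, and its log2 fold change with HFD went from -0.4 to -0.14 with the GC trend removed. Of 12 alternative genes other than Mrc1, 4 rose and 4 fell with HFD, and 3 rose and 5 fell with EC359. Arg1 fell by 0.19 with HFD and by 0.73 with EC359 (adjusted p = 2.1e-14), Retnla rose by 2.17 with HFD from 0.467 CPM, and Ccl22 fell by 1.45 and rose by 1.22.

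**Figure D5:**
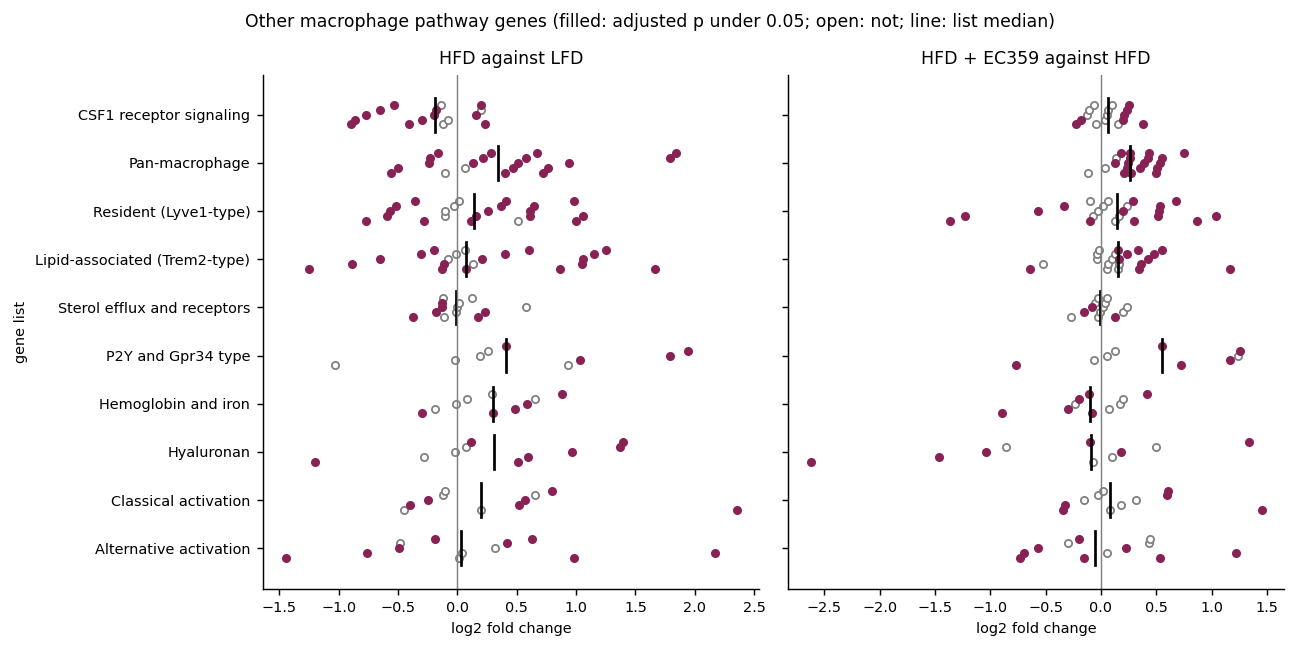
Log2 fold change (x axis) of each tested gene of 10 macrophage pathway lists (y axis), without the 10 markers, for HFD against LFD and HFD + EC359 against HFD. Filled points passed an adjusted p under 0.05, open points did not, and black lines are list medians, which is 0.34 and 0.27 for the pan-macrophage list.

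Other white blood cells were measured beside these genes. Of 8 tested monocyte genes 3 rose and 1 fell with HFD, among those that rose the receptor Ccr2 (log2 fold change 0.79, edgeR adjusted p = 5.2e-06). The summed level of all 9 listed was 164 to 175 CPM in LFD, 183 to 187 in HFD and 171 to 185 in HFD + EC359. Of 8 tested neutrophil genes 4 rose with HFD and 0 fell (0 also at an unadjusted p under 0.05 and by DESeq2). The sum over the 9 listed in the libraries was 110 to 131, 151 to 167 and 177 to 185 CPM. Since neutrophils and monocytes also carry Lyz2, their part in its difference was not tested.

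In the genome build of the files (mm9), none of the 10 markers overlapped another gene on the same strand. Lyve1 lies at chr7:117994121-118006467 (− strand, 6 exon blocks), Apoe at chr7:20281593-20284515 (− strand, 4), Csf1 at chr3:107543966-107563387 (− strand, 10), Mrc1 at chr2:14151041-14253650 (+ strand, 30) and Cd163 at chr6:124254669-124280545 (+ strand, 17). Lyz2 lies at chr10:116714597-116719328 (− strand, 4 exon blocks), Cd68 at chr11:69477873-69479564 (− strand, 6), Trem2 at chr17:48485726-48491598 (+ strand, 5) and Gpr34 at chrX:13209895-13217984 (+ strand, 3). All counts were made over exons.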

How the data were processed

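RNA from 9 tumors (3 LFD, 3 HFD, 3 HFD + EC359) was sequenced as stranded mRNA libraries with 150 bp paired ends. The authors deposited expected counts per gene, not normalized: per the file headers, featureCounts 1.5.0-p1 counted read pairs over exons on the reverse strand, at a mapping quality of at least 2, with multi-mapping and overlapping pairs split into fractions. The submitters' processing notes name HISAT2 2.1.0 and mm9, whereas the study's methods name TopHat2 and HTSeq, and the headers were followed here.

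The expected counts were rounded to whole numbers (1.19% to 3.55% of genes per library held fractions). Of 22609 genes, 13366 passed edgeR's filterByExpr by group. All 9 libraries entered 1 quasi-likelihood fit (edgeR 4.0.16, limma 3.58.1, R 4.3.3) with TMM factors (0.962 to 1.03), and p-values were adjusted by Benjamini-Hochberg over all tested genes. The threshold from the study's methods was a fold over 2 with an adjusted p under 0.01, and a second rule took any fold with an adjusted p under 0.05. A single gene at 3 libraries against 3 could not go below a two-sided exact permutation p of 0.1, so no such test was used. CPM values were scaled by TMM factors, and TPM used the exonic lengths in the files. Intervals and floors cover counting error only. The summed level of a list took every gene of it that the libraries list, tested or not. The fit was tested on simulated counts.

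The markers and lists were chosen with earlier results of these data known. Named genes were all 10 markers. Of each pathway list they were the 3 most abundant other genes and the 2 with the largest change at an adjusted p under 0.05 in each of the first 2 comparisons. Of each cell type list they were the 2 most abundant genes. The 5 genes most correlated with Lyve1 and with Trem2, and Lyz1 as a copy of Lyz2, were also named. Emr1, Ptprc, Marco, Cd14, Fcer1g, Mpeg1, Il34, Sfpi1, Folr2, Timd4, Pf4, Clec10a, Tyrobp, Spp1, Lgals3, Has3, Sall1, Ccr2, Tbx1, Prox1, Mmrn1, Ccl21a, Flt4, Pdpn, Reln, Kdr and Vwf were added after their values were seen. Alternatives were DESeq2 1.42.0, other scaling, other filters, the 6 libraries of a comparison alone, a replicate block and leaving out each library. After seeing the data, removal of the trend on GC content and length and thinning to the smallest library were added. Motifs were searched on both strands of RefSeq promoter windows (GRCm38.p6), and positions are from mm9.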

Additional observations from a re-analysis of the deposited data

How the results depend on the processing

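With the fold over 2 and adjusted p under 0.01, 763 genes were called for HFD against LFD, 459 for HFD + EC359 against HFD and 680 for HFD + EC359 against LFD. A filter of at least 10 counts in every library, which left 11980 genes and dropped Lyve1 and Gpr34, gave 356, 211 and 418. With the trend on GC content and length removed the third count was 411. Leaving out 1 library at a time gave 702 to 777, 399 to 497 and 602 to 742 for all genes, and 82 to 94, 63 to 83 and 82 to 89 of the 137 other pathway genes at an adjusted p under 0.05. Same-numbered libraries did not deviate together (correlations -0.03 to 0.017), and with the replicate block the counts were 759, 457 and 676 for all genes and 94, 77 and 89 for pathway genes. DESeq2 gave 682, 388 and 596. For HFD against LFD, named genes that turned in sign with the trend removed included Cebpb (to 0.00616), Lrp1 (to 0.13), Rock1 (to -0.18) and Sfpi1 (to 0.18). Il34 also turned, from -0.14 to 0.07, and the cause of these turns was not tested.

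Of the markers, the signs of Lyz2, Cd68, Csf1r, Apoe, Lyve1 and Gpr34 in all 3 comparisons, and of Mrc1, Csf1, Trem2 and Cd163 for HFD against LFD, were the same under each alternative that could fit them. Trem2 for HFD against LFD ran from -0.52 to -0.17. Gpr34 for HFD + EC359 against HFD ran from 0.9 to 1.51, and Lyve1 from -1.3 to -0.88. Depth limited Lyve1 and Gpr34, which had 15 and 5 counts over the 3 LFD libraries.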

Other observations

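Lists of other cell types gave these values in the same libraries. Of 9 adipocyte genes listed 5 had enough counts to be tested. The summed level of all 9 was 38.3 to 41.4 CPM in LFD, 37.3 to 40.1 in HFD and 43.9 to 47.5 in HFD + EC359. Adipoq was at 0.356, 0.521 and 0.415 CPM, Plin4 fell by 1.18 with HFD (adjusted p = 7.2e-07), Cfd rose by 1.16 (adjusted p = 0.0013), and Lipe, the most abundant, was at 24.1, 25.9 and 29.8 CPM. Of 9 dendritic cell genes listed 5 were tested and 3 were lower in HFD than in LFD (edgeR adjusted p under 0.05). Zbtb46 and Batf3 had log2 fold changes of -0.01 and 0.08 (adjusted p = 0.94 and 0.82), and Itgae fell by 1.57 (adjusted p = 2.8e-06) and rose by 1.2 with EC359 (adjusted p = 2.2e-04). Of 5 tested osteoclast genes, Acp5 rose by 0.66 (edgeR adjusted p = 9.7e-07) and Ctsk fell by 0.37 with HFD (adjusted p = 0.00068), and the other 3 were not called. The summed level of all 7 listed was 498 to 503, 513 to 526 and 508 to 516 CPM. T and NK cell genes summed to 11.3 to 14.8, 9.96 to 11.9 and 15.3 to 17.9 CPM. B and plasma cell genes summed to 230 to 247, 153 to 162 and 144 to 153 CPM, most of it Sdc1. Of 8 listed 2 were tested: Sdc1 fell by 0.64 with HFD (adjusted p = 1.4e-13), and Igj was at 0.229, 4.96 and 0.788 CPM, with log2 fold changes of 4.3 (adjusted p = 6.7e-09) with HFD and -2.65 with EC359 (adjusted p = 1.1e-07). Skeletal muscle genes summed to 176 to 185, 160.5 to 171 and 147 to 154 CPM. Adipoq, Cfd, Batf3 and Acp5 were singled out after their values were seen.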
